A study of Mus musculus with 2 samples.

Results

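The genes described are Sp100, Sp110, Sp140, Pml, Daxx, Xaf1, Phf11 and Samd9l, 8 of the 24203 genes on the array. They were chosen by name, as every transcript row that carries one of these symbols in the files, which gave 17 of 44170 rows. RNA of LT-HSCs, the long-term haematopoietic stem cells of bone marrow, which sustain blood formation, was hybridised to single-colour NimbleGen arrays. There were 2 arrays, 1 of LT-HSCs from cia-cGAS knockout mice and 1 of LT-HSCs from wild-type mice. Both groups were C57BL/6 mice aged 8 weeks, and cia-cGAS is labelled as a circular RNA. No row was matched to cia-cGAS, so the genotype labels were not checked on the arrays. The sources used here do not give how the knockout was made, whether animals were pooled, the sort markers or the number of cells. With 1 array a group there is no replicate check, so no SD, test or p-value is given. Every difference below describes these 2 samples.

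PML bodies are dots in the nucleus that form around PML, a scaffold protein that is modified by the small protein SUMO and holds partners such as SP100 and DAXX through it. PML, SP100 and several of their partners are known as interferon-induced genes, and the bodies are known for restraining viral DNA, for depositing histone variants and for a role in cell death and senescence. SP110 and SP140 are paralogues of SP100 that carry chromatin-reading domains. XAF1, PHF11 and SAMD9L are interferon-induced genes that are not scaffold parts of the body, so 5 of the 8 genes are nuclear body genes in the strict sense.

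Values are RMA intensities on the log2 scale, and differences are knockout minus wild type, so that 1 on this scale is 2-fold. To judge detection, 1050 rows of odorant, pheromone and taste receptor genes served as background, and their 95th percentile was taken as the floor, at 8.97 in the knockout and 9.11 in the wild type. Where only 1 array lay above its floor, the fold is that value over the other array's floor and is written as "at least". The highest values on the arrays were 15.84 in the knockout and 15.89 in the wild type, and differences near that top can be compressed. Near-identical genes can share hybridisation, which touches the SP and Phf11 families below. Where a gene has several rows, the brightest row by the mean of both values stands for it.

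The 8 genes were chosen with earlier results of these data known, so the shares of all genes below give scale and are no test. In the knockout 6 of the 8 genes were higher by 2-fold or more, and 0 were lower by as much. The 6 were Samd9l, Xaf1, Daxx, Sp140, Sp100 and Pml. Over all 10859 genes above the floor on either array, 5.53% were at least 2-fold higher and 4.06% at least 2-fold lower. The median difference of the 8 genes was 1.83, beside -0.02 over all those genes. Over rows, 14 of the 17 were at least 2-fold higher and 0 at least 2-fold lower, beside 6.11% and 3.81% of all rows above a floor. All 17 rows had a higher value in the knockout, including 1 row under both floors. Among all genes above a floor, taken by their brightest row, 48.4% had a higher value. That share is of genes and not of rows. At a 3-fold threshold 5 of the 8 genes were higher and 0 lower, beside 2.59% and 0.774% of all genes, and at 1.5-fold 7 were higher and 0 lower, beside 11.6% and 12.3%. With the mean over a gene's rows in place of the brightest row, 6 were at least 2-fold higher and 0 lower, beside 5.87% and 2.75%. Rows of a single gene differed from each other with a pooled SD of 0.37 in their differences, over 2896 genes with several detected rows, which measures probes and not animals.

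**Figure D1:**
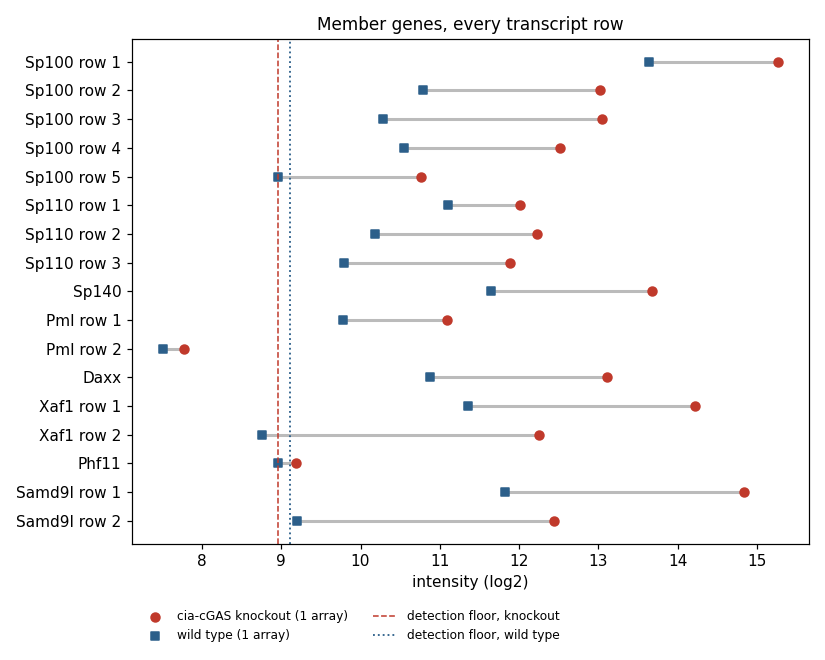
Log2 intensity of each of the 17 transcript rows of the 8 genes in the cia-cGAS knockout (red circles, 1 array) and the wild type (blue squares, 1 array), with the detection floor of each array as a vertical line at 8.97 for the knockout and 9.11 for the wild type. The knockout value lies to the right in all 17 rows, and the second Pml row lies under both floors.

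The markers of the labelled cell type were partly detected. Of 12 LT-HSC markers measured, 9 lay above a floor and 0 of these differed by 2-fold, and all 12 summed to an intensity of 33884 in the knockout and 30969 in the wild type. Procr and Slamf1, which help define these cells, were under both floors, while Kit read 12.42 in the knockout and 12.12 in the wild type. Markers of other marrow cells were also bright. Over all genes above a floor, 5.53% were at least 2-fold higher and 4.06% at least 2-fold lower. The 12 neutrophil markers summed to 222849 in the knockout and 168408 in the wild type, and 3 of the 11 detected were at least 2-fold higher, with Cebpe under both floors. The 10 monocyte and macrophage markers summed to 54990 in the knockout and 28911 in the wild type, of which Ctss alone gave 31733 in the knockout and 11097 in the wild type. Of the 10, 3 were at least 2-fold higher, while Cd68, Cd14 and C1qb differed by -0.29, -0.44 and -0.42. The 12 B lineage markers measured summed to 4410 in the knockout and 23848 in the wild type, and 8 of the 9 detected were at least 2-fold lower, with Cd79a and Igll1 under both floors. The 10 erythroid markers summed to 83411 in the knockout and 102664 in the wild type. Most of both sums came from Hba-a1, at 38240 in the knockout and 43470 in the wild type, and Hbb-b1, at 37093 and 42878. Of the 8 erythroid markers detected, 3 were at least 2-fold lower, with Epor and Klf1 under both floors. T and NK markers (6 of 7 detected, Klrb1c under both floors) and dendritic cell markers (4 of 5 detected, Itgax under both floors) had none called past 2-fold. Cd4, Cd8a, Siglech and Clec9a had bounds upward, and Nkg7 and Zbtb46 downward, which do not exclude 2-fold. Regardless of the floors, Cd8a differed by 1.18 and Clec9a by 1.27, while Nkg7 differed by -0.72 and Zbtb46 by -0.35. The T and NK markers summed to 4762 in the knockout and 4813 in the wild type. The dendritic cell markers summed to 3863 in the knockout and 2862 in the wild type. The part of these cell types in the differences of the 8 genes was not tested. In bulk samples fewer cells of a type and less RNA per cell cannot be told apart.

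Sp100 encodes a SUMO-modified partner of PML in the bodies. It lies on chromosome 1 (gene ID 20684, chr1:87546624-87598145 in the MM9 coordinates of the files) and has 5 rows. Row 1, the brightest, read 15.26 in the knockout and 13.64 in the wild type, a difference of 1.62 or 3.08-fold, and its knockout value lies close to the top of the scale. Row 2, placed at the same coordinates as row 1, read 13.01 in the knockout and 10.78 in the wild type, a difference of 2.23. Row 3, from a transcript placed at chr1:87546624-87590884, read 13.05 in the knockout and 10.28 in the wild type, a difference of 2.77. The first rows therefore all stood higher in the knockout, and the brightest of the 5 had the smallest difference. Row 4 read 12.52 in the knockout and 10.54 in the wild type, a difference of 1.98. Row 5, from the shortest transcript (chr1:87546624-87579693), read 10.76 in the knockout and 8.97 in the wild type, which is under the wild-type floor and gives at least 3.15-fold. All 5 rows were thus past 2-fold. By the brightest row, 2.23% of the 9243 genes above both floors had a larger difference than Sp100.

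Promoter windows of all 8 genes were read from RefSeq's GRCm38.p6 table, which holds 300 bases for each listed start, 250 before it and 50 from it on. On both strands 3 motifs were searched: GAAA followed after any 2 bases by GAAA, the core of the interferon-stimulated response element, TTCNNNGAA, the core of the gamma-activated sequence, and AANNGAAA, the core shared by interferon regulatory factors. The last was added after the promoters had been read, and it overlaps every match of the first. Of 32851 windows of 27025 genes, 3.44% held the response element core, 8.3% TTCNNNGAA and 23.9% AANNGAAA. A match is a description of the letters, and no binding was measured. The 250 bases before the first listed start of Sp100 are shown because they hold a pair of AANNGAAA matches on the minus strand, which read TTTC, any 2 bases and TT here, share 1 base and begin at -47 and -40 from the start. They lie on the plus strand at chr1:85649738-85649987 (GRCm38.p6), 5′ to 3′, with the matches in capitals.

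Sp100: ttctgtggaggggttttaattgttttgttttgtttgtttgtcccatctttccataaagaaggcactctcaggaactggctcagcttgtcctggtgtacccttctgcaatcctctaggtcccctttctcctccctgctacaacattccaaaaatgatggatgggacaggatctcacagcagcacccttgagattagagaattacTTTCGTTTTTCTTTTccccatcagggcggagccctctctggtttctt

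Sp110 and Sp140 lie beside Sp100, at lower coordinates. Sp110 encodes a paralogue of SP100 (gene ID 109032, chr1:87473474-87495377, MM9), and it has 3 rows. Row 1, the brightest, read 12.02 in the knockout and 11.11 in the wild type, a difference of 0.91 or 1.88-fold. Row 2 read 12.23 in the knockout and 10.19 in the wild type, a difference of 2.04 or 4.12-fold. Row 3 read 11.89 in the knockout and 9.79 in the wild type, a difference of 2.10 or 4.28-fold. The rows thus disagree on the size of the difference: the row that stands for Sp110 missed 2-fold, and both others passed it. With the mean of the 3 rows Sp110 had a difference of 1.68. A stretch of 30 bases just after a Sp110 start (minus strand, chr1:85598780-85598809, GRCm38.p6) is shown because it holds a pair of overlapping minus-strand AANNGAAA matches like the pair upstream of Sp100, at 10 and 17 from that start, in capitals. The window of the other listed Sp110 start held none.

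Sp110: gagatcacTTTCATTTTTCTTTTcttgaag

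Sp140 encodes a chromatin reader of immune cells (gene ID 434484, chr1:87497277-87541611, MM9). Its 1 row read 13.68 in the knockout and 11.64 in the wild type, a difference of 2.03 or 4.09-fold, and 1.46% of genes had a larger one. None of the 3 motifs was found in its window. The 3 SP genes were thus all higher in the knockout, with single rows between 0.91 and 2.77.

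Pml encodes the scaffold of the bodies (gene ID 18854, chr9:58065892-58097593, MM9). Row 1 read 11.09 in the knockout and 9.78 in the wild type, a difference of 1.31 or 2.48-fold, and 3.42% of genes had a larger one. Row 2, from a transcript placed at chr9:58068856-58097593, read 7.78 in the knockout and 7.51 in the wild type, under both floors, so that no fold is given. The call for Pml therefore rests on 1 row of 3 probes. With the mean of both rows the difference was 0.79 and Pml was no longer past 2-fold. The same held with the floor at the 99th percentile of the receptor rows, 10.21 in the wild type. The wild-type value of Pml lay under that floor, and 5 of the 8 genes, without Pml, were at least 2-fold higher. The 250 bases before the Pml start (minus strand, chr9:58249787-58250036, GRCm38.p6) are shown because PML names the body. They hold 1 minus-strand AANNGAAA match, at -74, in capitals.

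Pml: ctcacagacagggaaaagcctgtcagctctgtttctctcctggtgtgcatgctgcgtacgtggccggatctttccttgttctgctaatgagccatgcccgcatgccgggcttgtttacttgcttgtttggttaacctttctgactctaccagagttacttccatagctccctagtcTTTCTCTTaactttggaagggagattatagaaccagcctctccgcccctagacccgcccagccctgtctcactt

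Daxx encodes a histone chaperone that loads the variant H3.3 together with ATRX and is recruited to PML bodies (gene ID 13163, chr17:34046545-34052534, MM9). Its 1 row read 13.11 in the knockout and 10.88 in the wild type. The difference of 2.23, or 4.69-fold, was exceeded by 1.23% of genes. None of the 3 motifs was found in the windows of its listed starts. Its chaperone partner Atrx did not share the direction by its brightest row, at 12.02 in the knockout and 12.72 in the wild type, a difference of -0.70, and -0.59 by its other row above both floors. A further Atrx row went the other way, at 9.29 in the knockout and 8.57 in the wild type. That wild-type value is under the floor and gives at least 1.13-fold higher.

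Xaf1 encodes a zinc finger protein that in human cells binds and antagonises the caspase inhibitor XIAP (gene ID 327959, chr11:72115166-72122237, MM9). Row 1 read 14.22 in the knockout and 11.36 in the wild type, a difference of 2.87 or 7.29-fold, and 0.573% of genes had a larger one. Row 2 read 12.25 in the knockout and 8.76 in the wild type, which is under the floor and gives at least 8.86-fold. The clone behind row 2 is described in the files as Fbxo39, which they list as another name of Xaf1. The separate row of the neighbouring gene Fbxo39 read 4.75 on both arrays. A stretch of 30 bases after the Xaf1 start (plus strand, chr11:72301632-72301661, GRCm38.p6) is shown with its AANNGAAA match, at 12 from the start, in capitals. Another match lies before the start, at -17 on the minus strand.

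Xaf1: gtgcaaagAAACGAAActccacagaagcac

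Of 6 inhibitors of apoptosis and their antagonists tied to XAF1, 1 passed 2-fold upward by its brightest row and 0 downward. Over all genes 5.53% and 4.06% did, and the median difference of the 6 was 0.11. With the mean over a gene's rows, an alternative added after seeing the data, 2 passed 2-fold upward, Birc3 at 1.71 and Xiap at 1.22. The higher one was Birc3, an apoptosis inhibitor that acts in TNF receptor signalling, at 13.14 in the knockout and 11.90 in the wild type, with rows between 1.24 and 2.09. Its relative Birc2 read 11.12 in the knockout and 10.22 in the wild type, a difference of 0.90. Xiap itself read 13.26 in the knockout and 12.61 in the wild type by its brightest row, a difference of 0.65. Its other 3 rows were all past 2-fold, with differences of 1.24, 1.42 and 1.57. The other members lay below 0: Diablo, which frees caspases from XIAP, at -0.80, the protease gene Htra2 at -0.49 and the mitotic inhibitor gene Birc5 at -0.43. The other rows of Htra2 and Diablo lay under both floors.

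Samd9l encodes an interferon-induced restraint on growth in blood cells, for which activating mutations are known in human marrow failure (gene ID 209086, chr6:3322259-3349492, MM9). Row 1 read 14.84 in the knockout and 11.82 in the wild type, a difference of 3.02 or 8.10-fold. Row 2 read 12.44 in the knockout and 9.20 in the wild type, a difference of 3.24 or 9.43-fold, with the wild-type value just above its floor. The differences of both rows thus lay closer together than the pooled SD between rows, 0.37, and by row 1 only 0.498% of genes had a larger difference. A stretch of 30 bases after the Samd9l start (minus strand, chr6:3399523-3399552, GRCm38.p6) is shown with its AANNGAAA match, at 28 from the start, in capitals. A further match lies at -14.

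Samd9l: tgtatcagAATCGAAActggaaactgaagc

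**Figure D2:**
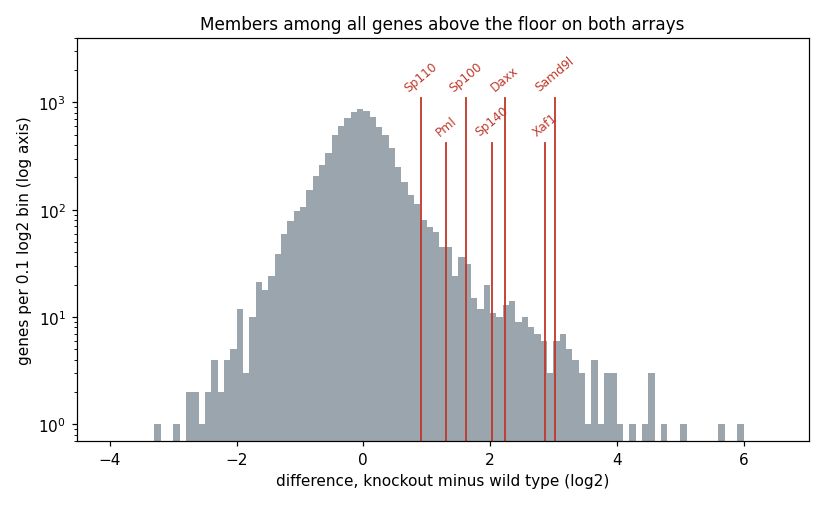
Histogram of the difference, knockout minus wild type on the log2 scale, over the 9243 genes above the floor on both arrays (counts on a log axis), with the 7 of the 8 genes that lay above both floors marked by red lines at their brightest row. They run from 0.91 for Sp110 to 3.02 for Samd9l, and Phf11 is not marked because its wild-type value was under the floor.

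Phf11 was the 1 gene of the 8 whose brightest row lay under the wild-type floor. It encodes a PHD finger protein, and the row named Phf11 in the files (gene ID 219131, chr14:59896020-59916343, MM9) belongs to the gene now called Phf11a. It read 9.19 in the knockout and 8.95 in the wild type, which is under the floor, a difference of 0.24 and a bound of at least 1.06-fold. Its relatives in the same cluster on chromosome 14 did not share that small difference. The gene now called Phf11 (Gm6904 in the files, gene ID 628693) read 11.32 in the knockout and 8.44 in the wild type, at least 4.64-fold. Phf11b read 12.99 in the knockout and 9.58 in the wild type, a difference of 3.41 or 10.7-fold. Phf11c read 12.46 in the knockout and 8.37 in the wild type, at least 10.2-fold. Of the family's 7 rows, 5 were thus at least 2-fold higher, beside 6.11% of all rows above a floor. All 7 had a higher value in the knockout. The rows of Phf11d differed by 1.73, 1.96 and 3.86, of which the first was above both floors. Setdb2, the histone methyltransferase gene at the end of the cluster, read 13.04 in the knockout and 9.997 in the wild type, a difference of 3.04 or 8.24-fold. Since these genes are much alike, the row of one may carry signal of another.

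The promoters of the cluster were compared as well, which describes the starts and not the transcripts that the probes read. The gene now called Phf11 has no listed start there, so its promoter was neither searched nor compared. Phf11a and Phf11b matched at 274 of 279 aligned bases (98.2%), and both hold the response element core, as GAAAAAGAAA on the plus strand. It begins at -29 in Phf11a and at -50 in Phf11b, and it was in no window of the other 7 genes. The 250 bases before each start are shown (minus strand, GRCm38.p6, chr14:59297523-59297772 for Phf11a and chr14:59341331-59341580 for Phf11b), with the match in capitals. Phf11a, at least 1.06-fold higher, and Phf11b, 10.7-fold higher, thus share the letters of this motif. The window of Phf11d matched that of Phf11a at 189 of 244 aligned bases (77.5%), with 50 gap bases. It held no such core but 1 AANNGAAA match, at -3 on the plus strand. The window of Phf11c could be aligned with Phf11a over 66 bases alone, of which 52 matched (78.8%), with 18 gap bases. None of the 3 motifs was found in the windows of Phf11c and Setdb2.
Phf11a: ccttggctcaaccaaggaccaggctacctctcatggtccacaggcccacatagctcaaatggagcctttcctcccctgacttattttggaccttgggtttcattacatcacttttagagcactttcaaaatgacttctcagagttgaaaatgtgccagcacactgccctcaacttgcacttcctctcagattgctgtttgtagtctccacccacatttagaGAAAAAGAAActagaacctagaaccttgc
Phf11b: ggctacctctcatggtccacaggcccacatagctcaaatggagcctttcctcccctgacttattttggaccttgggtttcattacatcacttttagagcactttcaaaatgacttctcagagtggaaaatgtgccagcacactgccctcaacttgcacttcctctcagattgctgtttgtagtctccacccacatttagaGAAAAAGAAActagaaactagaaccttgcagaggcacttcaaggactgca

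The SP genes also have many copies, most of them on chromosome 1. Beside Sp100, Sp110 and Sp140, 21 rows of related sequence were found, 13 by gene name and 8 by a description that mentions SP100 or SP140. The 8 were looked for after the values had been seen. Of the 21, 18 lay above a floor, and the median difference over the 18 was 1.76. Of the 18, 11 were at least 2-fold higher and 0 at least 2-fold lower, beside 6.11% and 3.81% of all rows. A530032D15Rik read 13.57 in the knockout and 11.96 in the wild type, a difference of 1.61. Gm7281 read 13.08 in the knockout and 11.04 in the wild type, a difference of 2.04. The 4 rows of C130026I21Rik differed by 0.94, 1.12, 2.17 and 3.02. Most copies thus stood higher in the knockout. The 1 detected copy that did not was Gm5831 on chromosome 9, at 9.16 in the knockout and 9.18 in the wild type. The promoter window of Sp140 matched that of A530032D15Rik at 270 of 271 aligned bases (99.6%) and that of C130026I21Rik at 257 of 261 (98.5%). That of Sp100 matched Gm7609 at 268 of 272 (98.5%). How much of each SP signal comes from copies was not tested. Aire, a further gene with the same kind of domains and the key factor for self-antigen display in the thymus, had 1 detected row among 10, at 9.41 in the knockout and 9.82 in the wild type.

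**Figure D3:**
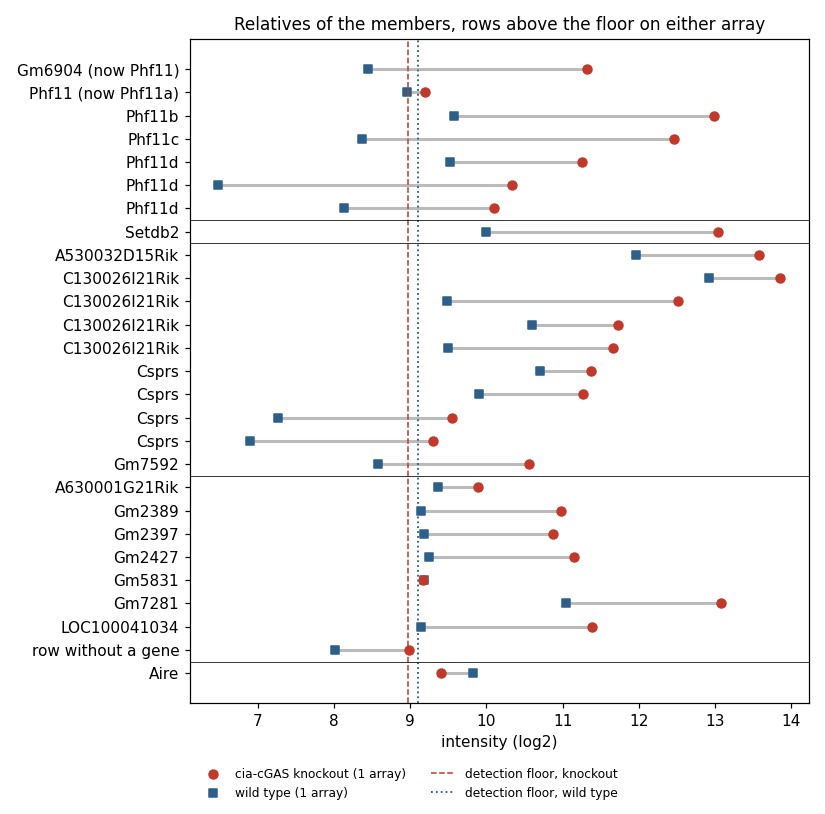
Log2 intensity in the cia-cGAS knockout (red circles, 1 array) and the wild type (blue squares, 1 array) for the rows above a floor in the Phf11 family, Setdb2, the SP-related rows and Aire, with the floors as vertical lines. The row named Phf11 in the files has both values close to the floors, while Phf11b was 10.7-fold higher in the knockout and Phf11c at least 10.2-fold.

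The other genes that build, modify or use PML bodies were taken as a list of 44, of which 40 lay above a floor. Of these 40, 4 were at least 2-fold higher, 2 at least 2-fold lower and 34 neither, beside 5.53% and 4.06% of all genes. The median difference was -0.08, with 19 above 0 and 21 below. The list as a whole thus did not share the direction of the 8 genes, and the 4 higher ones had differences between 1.32 and 1.54.

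Morc3, an ATPase of PML bodies, read 11.88 in the knockout and 10.34 in the wild type, a difference of 1.54, and its other rows gave 2.02 and 2.43. Morc3 was thus past 2-fold by every row. Mdm2, the ubiquitin ligase of p53, read 11.21 in the knockout and 9.70 in the wild type, a difference of 1.51, and 0.96 by its other row. Ranbp2, a SUMO ligase of the nuclear pore, read 13.11 in the knockout and 11.80 in the wild type by its 1 row, a difference of 1.32. Sumo2 and Sumo3, which encode SUMO proteins and were chosen after their values were seen, differed by -0.31 and 0.16, both below 2-fold. They are not all of the SUMO genes on the list and do not stand for them as a set.

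Of the 2 lower genes, Sae1 encodes a subunit of the SUMO-activating enzyme and Usp7 a deubiquitinase known at PML bodies. Sae1 read 10.87 in the knockout and 12.14 in the wild type, a difference of -1.27, and -0.45 by its other detected row. Usp7 read 11.58 in the knockout and 12.87 in the wild type, a difference of -1.29, and -0.05 by its other detected row. Neither was thus lower by 2-fold in more than 1 detected row. The partner subunit of Sae1, Uba2, differed by 0.13. Below 2-fold, among genes above both floors, the largest differences were those of Atrx, given above, and the SUMO ligase gene Pias4 at -0.70. Next came the SUMO protease gene Senp2 at -0.61, with 0.20 by its other row above both floors. The smallest differences were those of the kinase gene Hipk3 at 0.01, the H3.3 gene H3f3b at -0.08 and the ligase gene Topors at -0.08. Trp53, whose product is modified in the bodies, differed by 0.16.

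**Figure D4:**
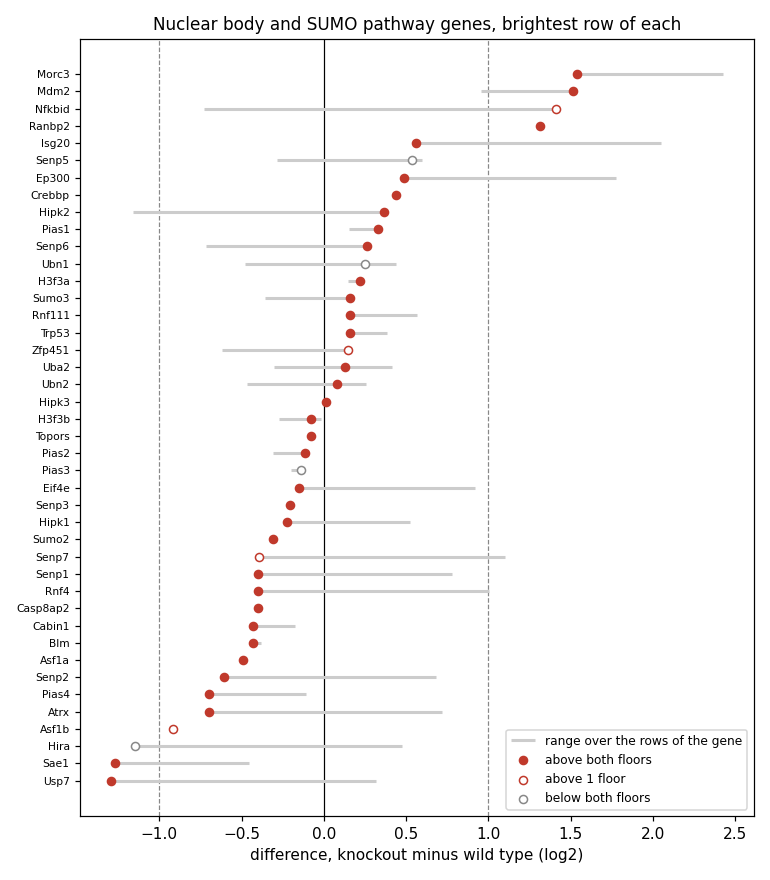
Difference, knockout minus wild type on the log2 scale, of the brightest row of 42 of the 44 nuclear body and SUMO pathway genes, with grey lines for the range over all rows of the gene, rows under the floors included, and dashed lines at 2-fold. Morc3, Mdm2 and Ranbp2 lie past 2-fold on the higher side and Usp7 and Sae1 on the lower side, and filled circles mark genes above both floors.

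For scale, 24 of 25 listed interferon-stimulated genes were measured, with a median difference of 3.06. Of these, 20 passed 2-fold upward and 0 downward, beside 5.53% and 4.06% of all genes. Among the 20 were Cxcl10, Ifit1, Ifit2, Ifit3, Mx1, Mx2, Ifih1, Ddx58, Irf7, Zbp1, Oas1a, Oas2, Oasl2, Eif2ak2, Ifi44, Isg15, Stat2, Rtp4 and Rsad2. Below 2-fold by the brightest row lay Oasl1 at 0.80, Irf9 at 0.46 and Bst2 at 0.31. Oas3 read 9.09 in the knockout and 7.24 in the wild type. Its knockout value lay above its own floor but under the wild-type floor, so no fold is given. Regardless of the floors, the other row of Oasl1 differed by 2.41. Samd9l and Xaf1 thus lay beside the middle of that list, at 3.02 and 2.87, and Daxx, Sp140, Sp100 and Pml below it, at 2.23, 2.03, 1.62 and 1.31. This comparison is of differences and not of levels.

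The neighbours of the 8 genes along the chromosomes were compared as well, taking the nearest 2 genes on each side. Among 24 neighbours outside the 8 genes, 15 lay above a floor. Of these, 6 were at least 2-fold higher and 0 at least 2-fold lower, beside 5.53% and 4.06% of all genes. Of the 6, 5 belong to the SP and Phf11 clusters described above. Beside Pml, Daxx, Xaf1 and Samd9l, 7 of 16 neighbours lay above a floor and 1 was at least 2-fold higher. It was Gm20559, next to Samd9l, at 12.22 in the knockout and 11.08 in the wild type, a difference of 1.14 or 2.21-fold. Next to Pml, Stoml1 differed by -0.11 and Loxl1 by 0.02. Next to Daxx, Zbtb22 differed by 0.13 and Tapbp, which loads peptides onto MHC class I, by 0.76. Beyond Sp100, Cab39 differed by -0.28, and beside the Phf11 cluster Rcbtb1 differed by 0.05. The detected neighbours of Pml and Daxx were thus below 2-fold on these arrays.

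**Figure D5:**
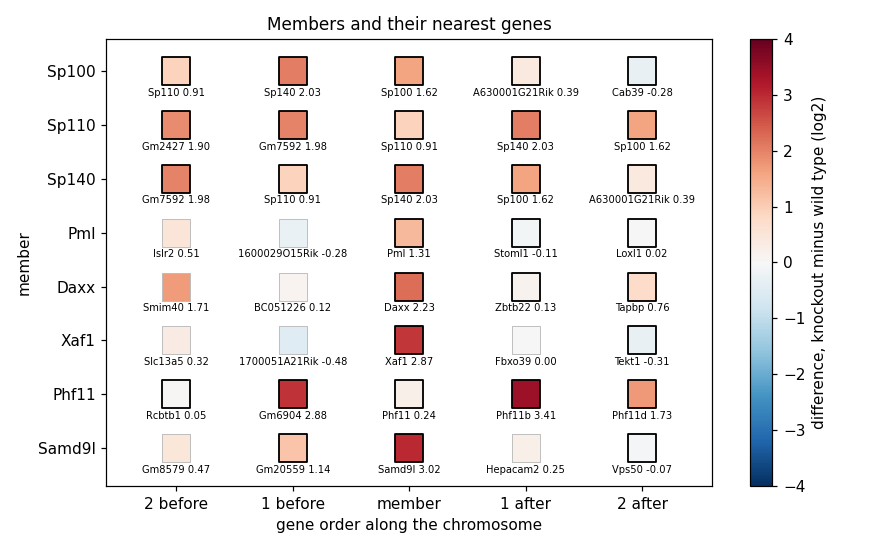
Difference, knockout minus wild type on the log2 scale, of each of the 8 genes (centre column) and the nearest 2 genes on each side by the files' coordinates, coloured from blue (lower in the knockout) to red (higher). Black outlines mark genes above a floor on either array, and beside Pml, Daxx and Xaf1 no outlined neighbour reaches 2-fold.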

How the data were processed

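Total RNA of sorted LT-HSCs was measured on 2 single-colour arrays, 1 of cia-cGAS knockout and 1 of wild-type cells, grouped by the genotype label. The deposited values are linear intensities, each the RMA summary of a transcript row, and RMA is named with no version per the submitters' processing notes. Rows are placed on MM9 per the file headers, which also give 3 probes for 44155 of 44170 rows. Whether coordinates count from 0 or 1 is not stated. RMA as generally defined equalises the arrays, so differences are relative to other genes. The series-wide table deposited by the authors holds the same intensities, within 1.28e-06 on the log2 scale.

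Intensities were put on the log2 scale with no further normalization (Python 3.11.15, pandas 2.3.3, numpy 2.4.6). Gene symbols were updated by gene ID for 39057 rows with RefSeq's GRCm38.p6 gene table, and the 8 genes were matched by the name in the files. Promoters were aligned with Biopython 1.88. The call of folds and bounds was checked on simulated data. Named were all rows of the 8 genes and, from each list, genes past 2-fold and up to 3 with the largest and smallest further differences. SP copies found by description, and Sumo2, Sumo3, Uba2, Trp53, Kit, Cd68, Cd14, C1qb, Pax5, Ebf1, Fcgr1, Ctss, Hba-a1 and Hbb-b1, were chosen after their values were seen. Some list genes that enter the counts are not reported here. The 8 genes and all lists were chosen with earlier results of these data known. Alternatives were the mean of rows, loess centring with a span of 0.3 (statsmodels 0.14.6), the series-wide table, other floors, other folds and other list summaries. The number of arrays limits the precision.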

Additional observations from a re-analysis of the deposited data

How the results depend on the processing

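Each group has 1 array, so the spread between animals is unknown, leaving out a replicate was not possible, and depth does not apply to arrays. No paired analysis was possible because each group has 1 array and the labels give no replicate numbers. Of 74 alternative values over 15 results, 65 moved by less than the pooled SD between rows (0.37), or for counts by at most 1.5 times. The other 9 follow, and their cause is the alternative's own construction, in that other rows or folds enter. With the mean of all rows the difference was 2.08 for Sp100, 1.68 for Sp110 and 0.79 for Pml, and of the 6 genes at least 2-fold higher 5 were shared with those by the brightest row, with Sp110 in place of Pml. With the current symbol, an alternative added after seeing the data, Phf11 had a difference of 2.88 in place of 0.24, and since both wild-type values lie under the floor these stand for at least 4.64-fold and at least 1.06-fold. In the nuclear body and SUMO list, the number at least 3-fold higher was 0, in place of 4 at 2-fold. The number lower was 0 with the mean of rows, 5 at 1.5-fold and 0 at 3-fold, in place of 2. Of the genes tied to Xaf1, 2 were higher with the mean of rows, in place of 1. With the mean of rows the list had 6 higher genes, adding Ep300 and Isg20. The number of the 8 genes called higher ran between 5 and 7 over the alternatives and none was called lower under any. Their median ran between 1.83 and 2.06, and their mean was 1.78. The median of the body list ran between -0.09 and -0.03, and its mean was 0.02, of the opposite sign. The loess curve of difference against mean level ran between -0.08 and 0.02. Signal near the floors limits Phf11, the second Pml row and the wild-type values of Sp100 row 5 and Xaf1 row 2, and signal near the top limits Sp100 row 1.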

Other observations

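Among 8 genes and their context lists, the B lineage markers had the largest median difference downward, at -2.62. Pax5, the factor that fixes B cell identity, read 7.25 in the knockout, under the floor, and 11.41 in the wild type, at least 5.45-fold lower in the knockout. Ebf1, which acts with it, read 9.30 in the knockout and 12.08 in the wild type, a difference of -2.78. Among the 10 monocyte and macrophage markers, 7 were above 0 and 3 below (Cd68, Cd14 and C1qb, given above), and the following were chosen after their values were seen. Fcgr1, a high-affinity antibody receptor gene, read 10.18 in the knockout and 6.87 in the wild type, under the floor, at least 2.11-fold higher in the knockout. Ctss, a lysosomal protease gene, read 14.95 in the knockout and 13.44 in the wild type, a difference of 1.52.

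Among the copies of the SP genes, the row that mentions SP100 at the lowest level was a sequence with no gene name on chromosome 1. It read 8.98 in the knockout and 8.01 in the wild type. Its knockout value lay under the wild-type floor, so no fold is given. The 3 rows of A530040E14Rik lay under both floors, between 8.54 and 8.95 in the knockout and between 6.48 and 6.83 in the wild type. A630001G21Rik, the gene that follows Sp100, differed by 0.39 in its brightest row and by 0.52 in the row described as an Sp100-containing protein.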
